A study of Mus musculus with 2 samples.

Results

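The genes described are the 10 core members of the switch that lets a cell pass from G1 into S phase: the CDK inhibitors Cdkn2a, Cdkn2b, Cdkn2c and Cdkn1b, the D cyclins Ccnd1, Ccnd2 and Ccnd3, the kinases Cdk4 and Cdk6, and the retinoblastoma gene Rb1. They were chosen by symbol, as 10 of the 33696 features of the matrix, and each symbol had a single row. Expression was read by droplet single-cell sequencing in KPCY 6419c5, a cell line from a mouse pancreatic ductal tumour. Clones 76 and 84, edited for 19 days, were mixed 1:1 and run as 1 library. The clones had been transfected with Cas12a-ABE, an adenine base editor built on Cas12a, and grown from single sorted cells, so each is a single-cell line and not a sample of the tumour. KPCY tumours arise in mice whose engineered alleles, a yellow fluorescent reporter among them, are switched on in the pancreas by a Pdx1-driven Cre.

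Cells were placed in groups by marker genes, and which group is which clone was not determined. An A cell had at least 2 UMIs (unique molecular identifiers, each counting 1 captured RNA molecule) of Pde10a, Plcb1, Galnt18, Arhgap15 and Ceacam1 together, and at least 3 times as many as of the B genes. A B cell met the mirrored rule for S100a7a, Rgs20, Hs6st2, Ccbe1, Ctse and Mal. None of the 10 described genes was used in the rule. Of 21361 cells that passed the filter, 7816 were A cells, 8936 were B cells and 4609 were neither. With 1 library there is no replicate of either group. No test was therefore run, and every interval below is an exact 95% interval that covers counting error only.

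D cyclins bind CDK4 or CDK6, and the complex phosphorylates Rb, which then releases the E2F factors that switch on genes for DNA replication. INK4 proteins (p16, p15 and p18, from Cdkn2a, Cdkn2b and Cdkn2c) bind CDK4 and CDK6 and block this step, while p27 from Cdkn1b mainly restrains CDK2. Cdkn2a has a second product, Arf, which stabilises p53. Loss of CDKN2A is a common event in human pancreatic cancer.

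There were 22178 barcodes in the matrix, with 116505698 UMIs in all and between 500 and 23576 in each. The median was 4699.5 UMIs per A cell and 5440.5 per B cell, with 3.19% and 1.89% mitochondrial UMIs. The 9 ductal and epithelial markers were seen unevenly in the groups. Krt18 had 1083 CPM (UMIs of the gene per 1000000 UMIs of the group) in A cells and 3019 CPM in B cells, and Krt8 and Krt19 were also high in both. Krt7 had 53.4 and 1358 CPM and Muc1 32.8 and 308 CPM, while Epcam went the other way, at 31.8 and 3.16 CPM. Sox9 (1.91 and 5.68 CPM) and Cldn4 (0.199 and 0.379 CPM) were near 0 in both. Markers of other cell types were scarce, with 2.11 and 0.929 CPM for the 7 fibroblast genes and 3.35 and 1.00 CPM for the 7 immune genes, and Col1a2, Dcn and Lum at 0. The 5 endothelial genes had 33.5 and 8.57 CPM, nearly all Egfl7, and Kdr was at 0. The 5 acinar genes had 13.7 and 4.38 CPM, carried by Prss2 (10.0 and 4.21 CPM) and Cela1 (3.65 and 0.171 CPM), with Prss1 and Cpa1 at 0. Their part in the results was not tested.

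The upstream sequences of the INK4 genes are shown because Cdkn2a has separate start sites whose products share a single row of counts, and because levels of Cdkn2a, Cdkn2b and Cdkn2c differed across cell-cycle levels, described further on. Each run gives the 250 bases before a RefSeq start (GRCm38.p6, the build of that table and not of the counts), 5′ to 3′ on the gene's own strand, here the minus strand. Capitals mark matches on either strand to TTTNNCGC, an E2F-like sequence, or to TTTGAA, the letters of a cell-cycle element called CHR. The first motif is held by 4.28% and the second by 16% of the 32851 upstream windows of this length. A match is only a match of letters. The window at chr4:89294620-89294869, nearer Cdkn2b, precedes the start that makes Arf, and the window at chr4:89282193-89282442 the start that makes p16.
Cdkn2a, Arf start: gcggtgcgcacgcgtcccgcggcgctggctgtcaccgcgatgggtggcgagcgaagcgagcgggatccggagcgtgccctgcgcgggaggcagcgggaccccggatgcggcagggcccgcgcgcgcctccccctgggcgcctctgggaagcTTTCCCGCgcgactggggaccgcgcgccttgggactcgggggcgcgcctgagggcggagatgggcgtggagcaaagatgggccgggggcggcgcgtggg
Cdkn2a, p16 start: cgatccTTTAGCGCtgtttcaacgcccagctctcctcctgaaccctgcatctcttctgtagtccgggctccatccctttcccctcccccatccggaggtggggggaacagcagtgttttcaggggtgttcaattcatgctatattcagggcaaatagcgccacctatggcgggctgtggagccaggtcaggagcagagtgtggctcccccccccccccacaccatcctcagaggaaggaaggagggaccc
Cdkn2b: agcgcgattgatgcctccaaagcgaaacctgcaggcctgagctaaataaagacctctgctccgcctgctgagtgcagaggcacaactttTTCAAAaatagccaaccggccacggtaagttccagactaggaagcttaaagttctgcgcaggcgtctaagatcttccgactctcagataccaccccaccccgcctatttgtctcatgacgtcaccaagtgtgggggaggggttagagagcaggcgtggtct
Cdkn2c, upstream start: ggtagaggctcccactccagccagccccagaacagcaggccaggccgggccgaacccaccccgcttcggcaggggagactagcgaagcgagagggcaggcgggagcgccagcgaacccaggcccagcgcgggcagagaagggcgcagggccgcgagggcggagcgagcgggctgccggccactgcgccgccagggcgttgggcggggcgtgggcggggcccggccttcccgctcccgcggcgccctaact
Cdkn2c, downstream start: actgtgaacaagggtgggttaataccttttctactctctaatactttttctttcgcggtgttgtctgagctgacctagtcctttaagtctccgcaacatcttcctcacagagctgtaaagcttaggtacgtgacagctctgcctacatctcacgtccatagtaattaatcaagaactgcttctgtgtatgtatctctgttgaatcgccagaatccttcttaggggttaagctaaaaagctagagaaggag
Both Cdkn2a windows held 1 match to TTTNNCGC. Cdkn2b (chr4:89311033-89311282) held 1 match to TTTGAA, read on the other strand. The Cdkn2c windows (chr4:109666757-109667006 and chr4:109665373-109665622) held neither. Of the 10 genes, 7 had an entry in the table, and Ccnd1, Ccnd2 and Rb1 had none. Outside the INK4 genes, the Cdk6 window also held 1 match to TTTNNCGC. The windows of Cdkn1b, Cdk4 and Ccnd3 held neither motif.

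Cdkn2a UMIs were seen in most barcodes of both groups, and the share that free RNA gives was not measured for this or the other genes. The gene (ENSMUSG00000044303) had 15036 UMIs or 373 CPM (interval 367 to 379) in A cells and 25539 UMIs or 484 CPM (478 to 490) in B cells, 1.30-fold higher in B. After each cell was thinned to 3000 UMIs, to set depth equal, 66.4% of A cells and 75.7% of B cells had a Cdkn2a UMI, against 81.7% and 91.4% without thinning. Counts at the 3′ end do not tell Arf from p16, so the row is the sum of both products.

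Cdkn2b, which lies next to Cdkn2a on chromosome 4, did not share that difference. It had 43.1 CPM (41.1 to 45.2) in A cells and 41.0 CPM (39.3 to 42.8) in B cells, and the interval of the log2 ratio, from -0.018 to 0.17, held 0. After thinning, 11.8% and 11.6% of cells had a UMI (19.0% and 20.9% without thinning).

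The other inhibitors were higher in A cells. Cdkn2c (ENSMUSG00000028551) had 44.2 CPM (42.1 to 46.3) in A cells and 24.5 CPM (23.2 to 25.9) in B cells, 1.80-fold higher in A. Cdkn1b (ENSMUSG00000003031) had 66.3 CPM (63.8 to 68.9) and 28.1 CPM (26.7 to 29.5), 2.36-fold higher in A and the largest ratio of the 10 genes. Cells with a UMI after thinning followed the same order, 12.2% and 6.51% for Cdkn2c and 18.2% and 7.82% for Cdkn1b (unthinned, 19.4% and 13.1%, and 27.8% and 15.04%). So B cells had more Cdkn2a, A cells more Cdkn2c and Cdkn1b, and Cdkn2b did not differ beyond counting error.

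The D cyclins differed in make-up. Ccnd1 (ENSMUSG00000070348) is a D cyclin that responds to growth-factor signalling. It had 274 CPM (269 to 279) in A cells and 506 CPM (500.4 to 513) in B cells, 1.85-fold higher in B. Ccnd2 (ENSMUSG00000000184) went the other way, with 241 CPM (236 to 246) in A cells and 159 CPM (155 to 162) in B cells. Ccnd3 (ENSMUSG00000034165) had 60.4 CPM (58.0 to 62.8) and 50.7 CPM (48.8 to 52.6), 1.19-fold higher in A.

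Summed over the family, D-cyclin UMIs came to 575 CPM (568 to 583) in A cells and 716 CPM (709 to 723) in B cells. Ccnd1 made up 47.6% of them in A cells and 70.8% in B cells, Ccnd2 41.9% and 22.2%, and Ccnd3 10.5% and 7.08%. UMIs count molecules at 1 end, and capture can differ between genes, so these shares are read only between the groups. A Ccnd1 UMI was seen in 51.1% of thinned A cells and 74.8% of thinned B cells, and a Ccnd2 UMI in 49.3% and 35.3% (unthinned, 65.2% and 90.2%, and 64.9% and 54.6%). No D-cyclin UMI of any kind was seen in 20.96% of thinned A cells and 14.6% of thinned B cells.

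The kinases split in the same fashion. Cdk4 (ENSMUSG00000006728) had 322 CPM (316 to 327) in A cells and 233 CPM (229 to 237) in B cells, 1.38-fold higher in A. Cdk6 (ENSMUSG00000040274) had 87.8 CPM (84.9 to 90.7) and 118 CPM (115 to 121), 1.34-fold higher in B. A Cdk4 UMI was seen in 60.6% and 49.1% of thinned cells and a Cdk6 UMI in 22.2% and 29.2% (unthinned, 76.7% and 70.4%, and 34.5% and 46.9%). Rb1 (ENSMUSG00000022105), whose protein is the substrate of both kinases, was sparse, with 14.0 CPM (12.8 to 15.2) and 15.4 CPM (14.3 to 16.5), and the interval of its log2 ratio, -0.30 to 0.018, held 0. An Rb1 UMI was seen in 4.01% and 4.64% of thinned cells, so its absence from a cell's counts says little about that cell. Rb1 overlaps annotated genes on both strands, which makes its counts less certain.

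No cell type in the line is known to lack these genes, so only other genes could be read for free RNA. The 10 genes outside the rule with the largest A over B ratio were seen in a median of 23.0% of thinned A cells and 0.821% of thinned B cells. The 10 with the largest B over A ratio were seen in 19.7% of B cells and 0.662% of A cells. The highest share of any of them in the other group was 5.13% and 9.95%. These genes were picked by their ratio, so a low share in the other group is fixed by the choice, and they set no limit on free RNA. The endocrine list was seen in 0.0270% and 0.0340% of cells.

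**Figure D1:**
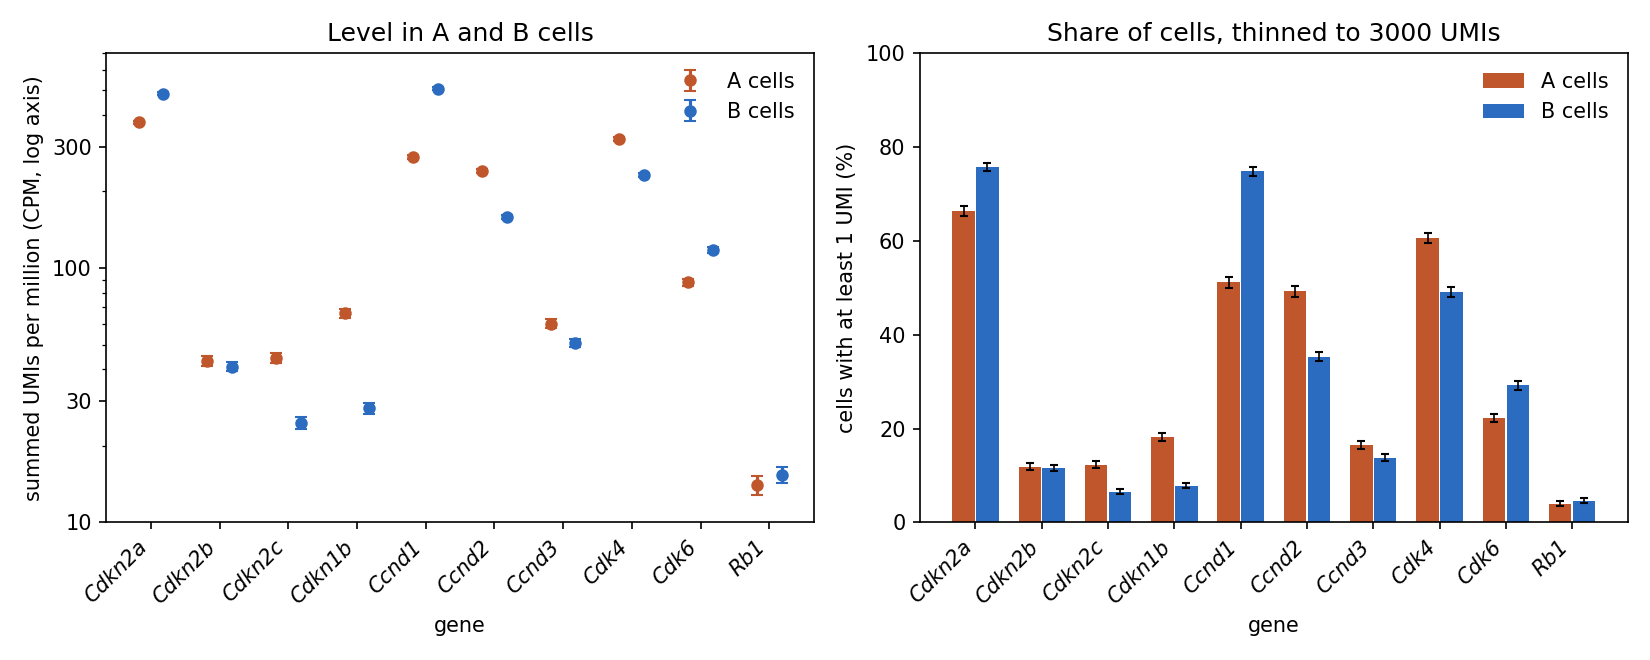
Left, level of each gene in A and B cells as CPM from summed UMIs, on a log axis, with exact Poisson intervals. Right, percent of cells with at least 1 UMI after thinning to 3000 UMIs, with exact Clopper-Pearson intervals. Ccnd1 and Cdkn2a stand higher in B cells and Cdkn1b, Cdkn2c, Ccnd2 and Cdk4 in A cells, while Cdkn2b and Rb1 lie close together.

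A floor of 50 CPM in A or in B cells left 3897 genes, without the 11 genes of the rule. Of these, 14.0% were at least 2-fold apart (7.49% higher in A and 6.54% higher in B), and 31.8% at least 1.5-fold. Of the 10 described genes 7 reached this floor, and Cdkn2b, Cdkn2c and Rb1 did not. Of the 7, 1 was at least 2-fold apart (Cdkn1b) and 3 at least 1.5-fold (Cdkn1b, Ccnd1 and Ccnd2). Cdkn2c, under the floor, was 1.80-fold apart. The interval of the log2 ratio left out 0 for 7 of the 7, against 92.7% of all genes at this floor. A gene can reach the floor through its higher group alone, so these counts are descriptions, here and in the comparisons below. The median absolute log2 ratio was 0.44 for the 10 genes, the 3 under the floor included, and 0.37 for all genes at the floor.

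The median log2 ratio over all genes was 0.11, towards A, so each ratio is also read from that centre. Centred, the log2 ratio of A over B was 1.13 for Cdkn1b, 0.74 for Cdkn2c, 0.50 for Ccnd2, 0.36 for Cdk4, 0.15 for Ccnd3, -0.032 for Cdkn2b, -0.24 for Rb1, -0.48 for Cdkn2a, -0.53 for Cdk6 and -0.99 for Ccnd1. Only Cdkn2b changed sign with this scaling, from 0.074.

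The ratios were also set beside those of the other genes on each chromosome, as placed by the GENCODE M21 annotation, a table of another build used here for chromosome names only. Ccnd1 lies on chromosome 7, where the 253 genes tested had a median log2 ratio of 0.52 towards A. Its own log2 ratio of -0.89 was at the 3.95th percentile of that chromosome. Cdkn2a (-0.37) and Cdkn2c (0.85) both lie on chromosome 4, whose 193 genes had a median of -0.063, and went opposite ways. Ccnd3 (0.25) was close to the 0.33 of chromosome 17. DNA copy number was not measured.

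**Figure D2:**
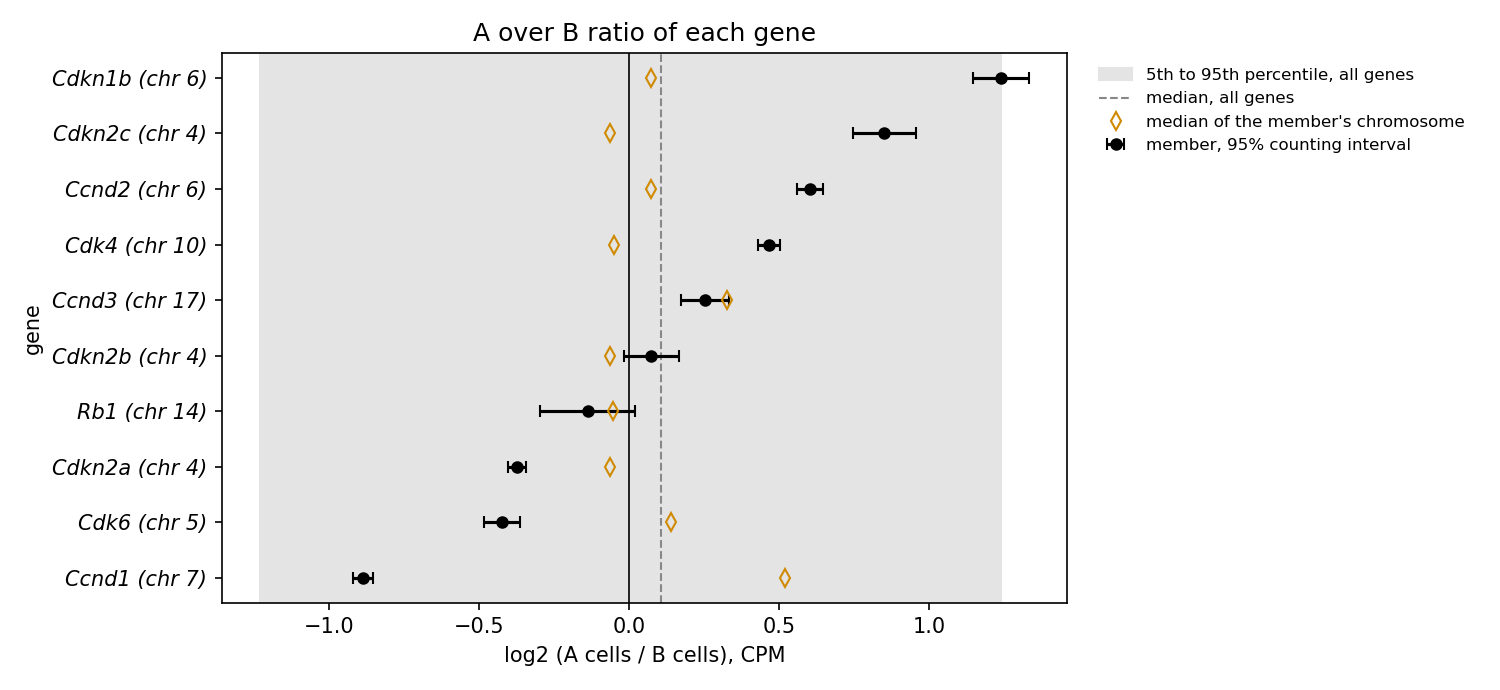
Log2 ratio of A over B cells (CPM) of each gene with its exact conditional interval (black), the median of the genes on its chromosome (diamonds), and the 5th to 95th percentile of all 3897 genes tested (grey band, dashed line at the median of 0.11). Cdkn1b sits at 1.24, at the upper end of the band, and Ccnd1 at -0.89, well below the median of its chromosome (0.52).

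The genes were next read across the cell cycle. Within A and within B cells, the 10% highest in a G2/M list of 53 genes, the 10% highest in an S list of 43 genes and the 10% lowest in both lists together were taken from thinned cells, giving 741 A cells and 883 B cells in each. The lists hold none of the 10 genes. These cells differed in depth too: the median was 5205 UMIs in the G2/M-high A cells, 4268 in the S-high and 3980 in the lowest, and 6374, 4969 and 4811 in B cells. The part of depth in the values below was not tested.

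Cdkn2c was highest in G2/M-high cells of both groups. In A cells it had 31.0 CPM (25.3 to 37.5) in the lowest cells, 34.6 CPM in the S-high cells and 73.8 CPM (65.7 to 82.6) in the G2/M-high cells. In B cells the values were 13.3 CPM (10.2 to 17.0), 24.8 CPM and 37.1 CPM (32.3 to 42.4). G2/M-high cells were thus 2.38-fold above the lowest cells in A and 2.79-fold above in B. Cdkn1b showed a smaller difference in the same direction, 70.6 against 96.2 CPM in A cells and 23.2 against 33.5 CPM in B cells.

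Cdkn2a and Cdkn2b were highest in the cells with the least cell-cycle RNA. Cdkn2b had 69.98 CPM (61.3 to 79.5) in the lowest A cells and 32.0 CPM (26.3 to 38.5) in the S-high A cells, a 2.19-fold difference. In B cells it had 58.0 CPM (51.4 to 65.3) and 30.04 CPM (25.3 to 35.4), a 1.93-fold difference. G2/M-high cells lay between, at 44.8 and 41.6 CPM. Cdkn2a had 453 CPM (431 to 477) in the lowest A cells against 367 CPM in the S-high and 359 CPM in the G2/M-high A cells, and 578, 469 and 455 CPM in B cells. So these 3 INK4 genes split in both groups (Cdkn2d, the other gene of the family, was not read across the cycle), with Cdkn2a and Cdkn2b high where cell-cycle RNA was low and Cdkn2c high with G2/M RNA.

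The cyclins and kinases also differed along the cycle. Cdk4 was lower in the lowest cells, at 260 CPM against 341 CPM in S-high and 329 CPM in G2/M-high A cells, and 196, 236 and 247 CPM in B cells. Ccnd3 was lowest in G2/M-high cells, at 50.2 CPM in A and 39.7 CPM in B, against 72.6 and 59.2 CPM in S-high cells. Ccnd2 was low in S-high A cells (186 CPM, against 280.2 CPM in the lowest) but level in B cells (158 and 159 CPM). Ccnd1 had 217, 249 and 247 CPM from the lowest to the S-high and G2/M-high A cells. In B cells it had 474, 427 and 542 CPM. Its S-high cells were above the lowest in A and below them in B, and when the 20% rather than 10% of cells were taken the A difference was gone (log2 ratio -0.016 in place of 0.20). The difference between its G2/M-high and lowest A cells went too, from 0.19 to 0.0082, with an interval of -0.082 to 0.098. Cdk6 had 78.3, 86.5 and 86.1 CPM in A cells and 116, 122 and 150 CPM in B cells. Rb1 had 17.9 and 18.7 CPM in S-high A and B cells and 11.6 and 10.9 CPM in G2/M-high cells. In A the intervals of these levels were 13.7 to 22.9 and 8.50 to 15.4. The interval of the log2 ratio of G2/M-high over S-high cells was -1.21 to -0.058 in A and -1.26 to -0.29 in B.

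Comparing G2/M-high with the lowest cells, the interval of the log2 ratio left out 0 for 7 of 10 genes in A cells (4 higher, 3 lower) and 8 of 10 in B cells (5 higher, 3 lower). Which genes these are depends on the share of cells taken: with 20% in A cells, Ccnd1 left the set and Cdk6 entered it (0.18, interval 0.020 to 0.34). Among genes that reached 50 CPM in either kind of cell, it was 7 of the 9 described genes against 63.7% of all in A, and 6 of the 7 against 57.0% in B. The lists' own genes were left out of these shares. Comparing S-high with the lowest cells, it was 5 of 10 in each group. With 20% of cells, Ccnd1 left the A set and Cdkn2c and Rb1 entered it, while Cdkn1b and Rb1 entered the B set. With 10% of cells and the same floor, it was 5 of 8 in A against 63.3% of all genes, and 4 of 7 in B against 52.4%. The log2 ratio of A over B was -1.13 in the lowest, -0.78 in the S-high and -1.14 in the G2/M-high cells for Ccnd1, and 1.60, 1.00 and 1.52 for Cdkn1b. For Cdkn2c it was 1.22, 0.48 and 0.99 and for Ccnd2 0.82, 0.23 and 0.58, so both ratios were smallest in S-high cells.

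**Figure D3:**
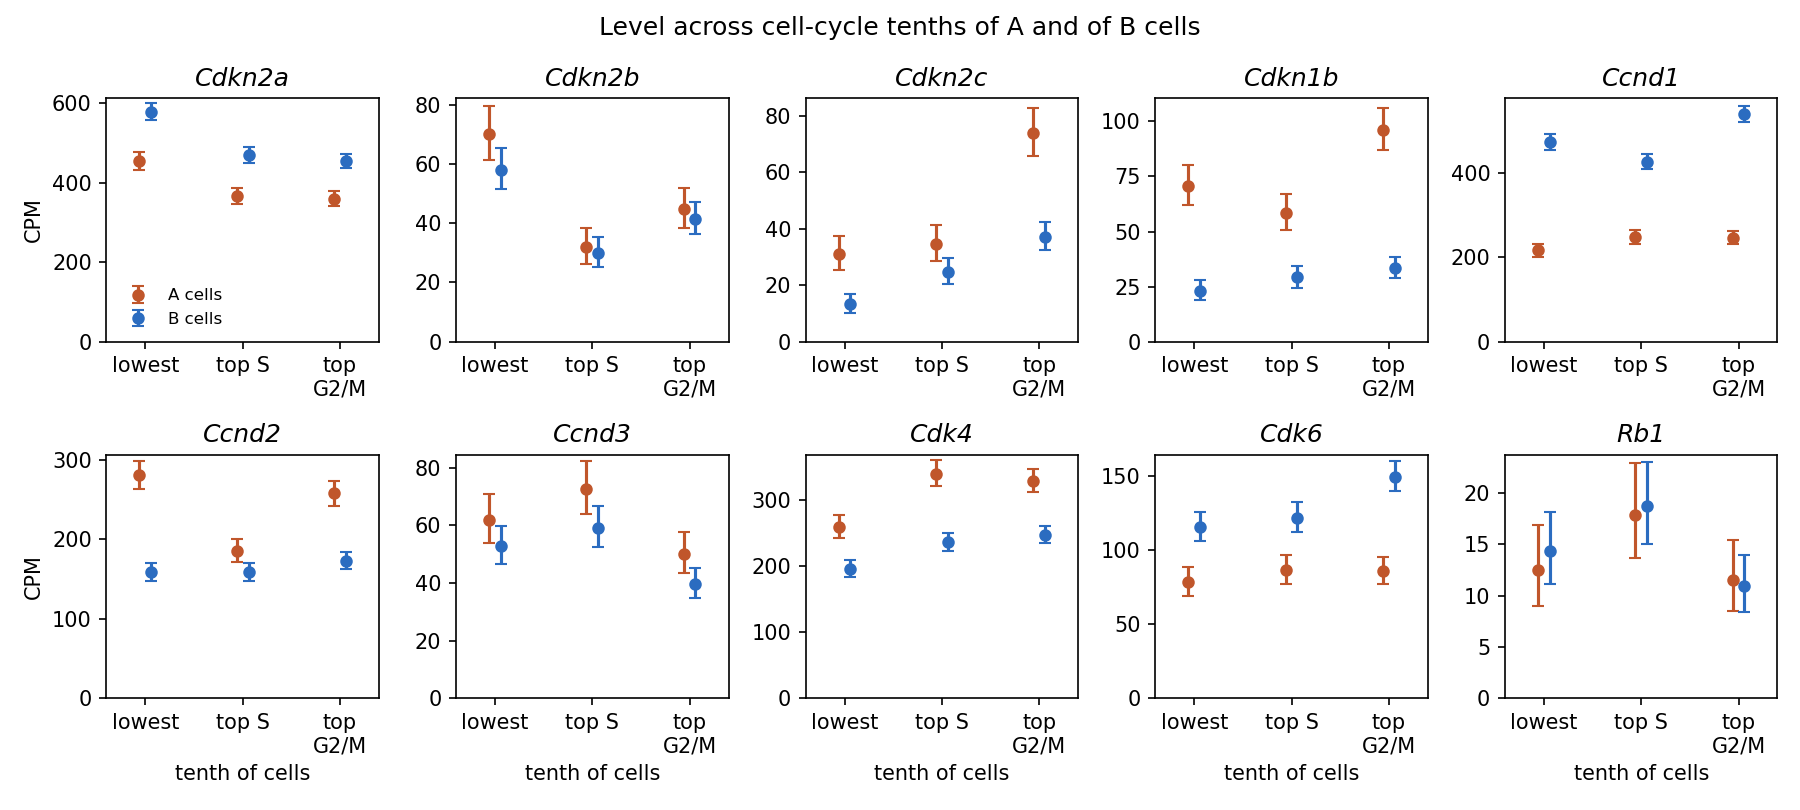
Level (CPM, linear axes from 0) of each gene in the 10% of A and B cells lowest by both cell-cycle lists, highest by the S list and highest by the G2/M list, with exact Poisson intervals. Cdkn2c stands at 73.8 CPM in G2/M-high A cells, and Cdkn2b is lowest in S-high A and B cells, at 32.0 and 30.04 CPM.

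Expression states within a group were set by a pair of gene sets: at least 2 UMIs of one set and at least 3 times as many as of the other. Among A cells, 1452 (18.6%) were S100g/Epcam/Tm4sf20 cells and 1161 (14.9%) were Tnc/Acta2 cells, named for a matrix gene and a contractile gene. Ccnd1 had 197 CPM in the S100g/Epcam/Tm4sf20 cells and 284 CPM in the Tnc/Acta2 cells, 1.44-fold higher in the latter. Cdk4 had 272 and 343 CPM and Cdk6 79.3 and 92.1 CPM, in the same order. Cdkn1b went the other way, with 76.3 and 60.8 CPM, as did Cdkn2c, with 45.6 and 38.0 CPM. Under a stricter state rule (4 UMIs and 5 times the other set) the interval of Cdkn2c, from -0.024 to 0.73, held 0, and that of Cdkn2a, from 0.0040 to 0.24, did not. The interval left out 0 for 5 of 10 genes under either rule, but not the same 5. At a floor of 50 CPM in either state it was 4 of 7 under the first rule, against 57.4% of all genes. Median depth was 4626 and 5285 UMIs.

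Within B cells, 541 (6.05%) were Krt14/Sprr1a cells, named for genes of squamous epithelium, and 4714 (52.8%) were Areg/Btc/Cftr cells. Their median depth was 6097 and 5530.5 UMIs. Cdk6 had 90.4 CPM in the Krt14/Sprr1a cells and 129 CPM in the Areg/Btc/Cftr cells, 1.43-fold higher in the latter. Ccnd1 had 445 and 516 CPM, Cdk4 214 and 236 CPM, and Ccnd2 144 and 159 CPM, all in that order. Cdkn2a (528 and 470.1 CPM) and Ccnd3 (58.0 and 48.7 CPM) went the other way. The interval left out 0 for 6 of 10 genes, and for 4 of 10 under the stricter state rule, where those of Ccnd2 (-0.43 to 0.017) and Ccnd3 (-0.12 to 0.56) held 0. In the main comparison all 6 reached 50 CPM in either state and the other 4 did not, and the share of all genes at that floor was 53.1%. Every B state held more Ccnd1 than either A state.

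**Figure D4:**
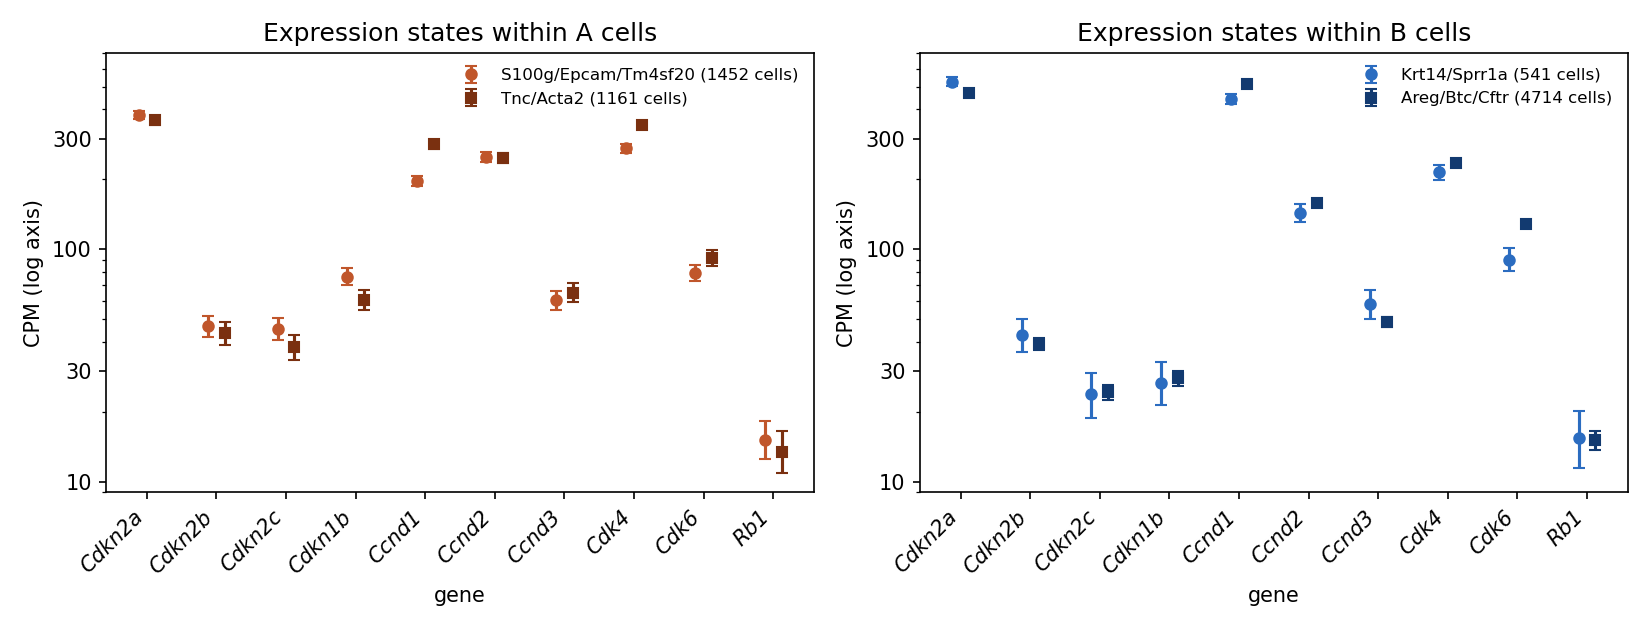
Level (CPM, log axis) of each gene in 2 expression states of A cells (left) and of B cells (right), with exact Poisson intervals and the number of cells in the legend. Ccnd1 and Cdk4 differ between the A states and Cdk6 between the B states, while Rb1 overlaps in both.

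Pairs of these genes were seen in the same cell about as often as their separate frequencies give. For each of the 45 pairs, the number of thinned cells with a UMI of both was divided by the number that the 2 separate shares predict. The median of this ratio was 1.01 in A cells and 1.00 in B cells, as over all 4114146 pairs of 2869 genes with at least 50 CPM in both groups (1.00 in both groups). The interval lay above 1 for 1 pair and below 1 for 1 pair in each group. It left out 1 for 0 of the 15 pairs of the 6 described genes at that floor, in either group. Of all pairs, it left out 1 for 1.16% in A and 1.03% in B. This interval treats the cells with both as a Poisson count and holds the predicted number fixed. It is too wide for genes seen in many cells, where few pairs could leave out 1, so 0 of 15 says little. The pairs set apart each hold a gene under the floor, and their intervals reach close to 1. In A cells these were Cdkn2c with Ccnd3 (175 cells, ratio 1.17) and Cdkn1b with Ccnd1 (632 cells, ratio 0.919). In B cells they were Cdkn2c with Cdkn1b (61 cells, ratio 1.36) and Cdkn2c with Ccnd2 (175 cells, ratio 0.862). In the 1899 A cells and 3331 B cells deep enough to be thinned to 6000 UMIs, a smaller set with higher detection, the ratios were 1.05, 0.967, 1.12 and 1.00 in this order. None of the 4 pairs was set apart in both groups. A ratio has little room above 1 for genes seen in most cells, such as Cdkn2a and Ccnd1.

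Pearson correlations of log values over cells, which share the library and were set to equal depth, ran from -0.036 to 0.049 in A cells and from -0.027 to 0.042 in B cells. The 1st and 99th percentiles over all gene pairs were -0.041 and 0.042 in A and -0.032 and 0.034 in B. The highest value was that of Cdkn2a with Cdkn2b in A cells, the neighbours on chromosome 4, and the same pair had 0.0030 in B cells. Ccnd1 with Ccnd2 had the highest value in B cells. Both lie past the 99th percentile of their group, and Ccnd1 with Ccnd2 had 0.038 in A cells. Cdkn2b was under the 50 CPM floor of the genes that gave these percentiles. In A cells the co-detection ratio of Cdkn2a with Cdkn2b was 1.07, and 1.01 at 6000 UMIs. These weak values in sparse counts are given as descriptions. D-cyclin combinations gave the same picture: both Ccnd1 and Ccnd2 without Ccnd3 were seen in 22.0% of A cells and 23.6% of B cells, against 21.0% and 22.8% predicted.

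**Figure D5:**
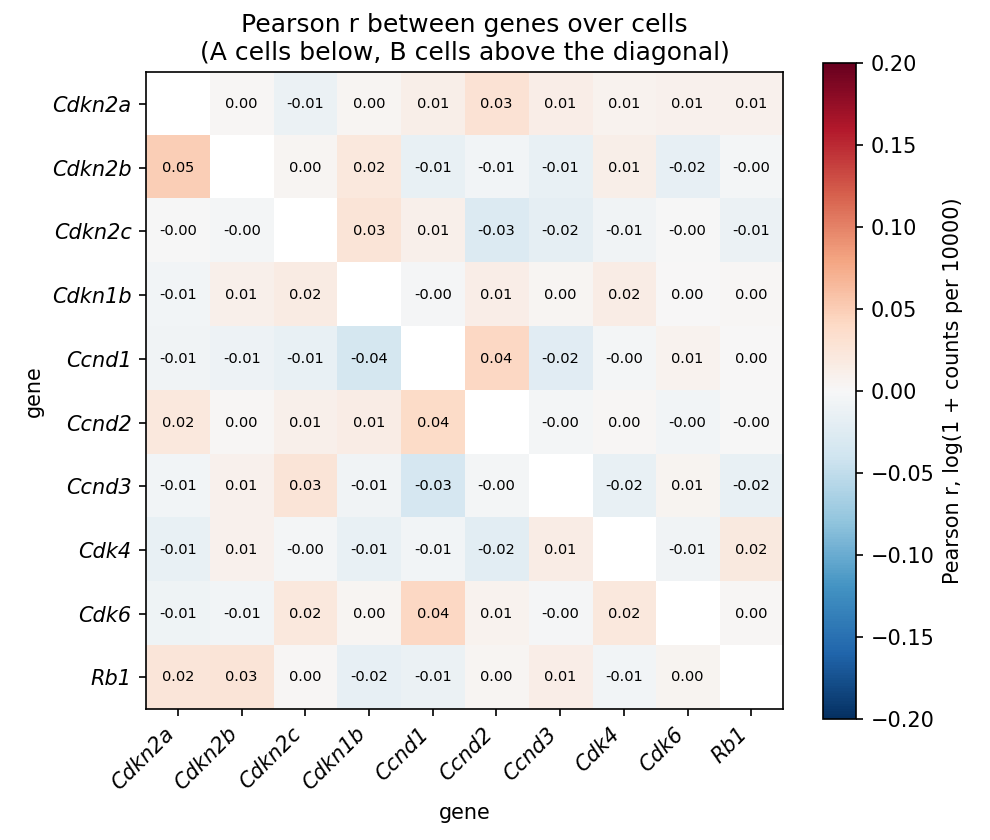
Pearson r of log(1 + counts per 10000) between each pair of genes over thinned cells, with A cells below and B cells above the diagonal. No pair passes 0.049, with the colour scale running from -0.2 to 0.2.

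Spread among cells was near that of pure counting for most of the genes. The variance over the mean of UMIs in thinned cells, 1 for pure counting, was 1.24 in A and 1.19 in B cells for Ccnd1 and 1.13 and 1.16 for Ccnd2, the highest of the 10. The median over 2869 genes was 1.03 in each group, and Ccnd1 was at the 93.6th and 92.5th percentile. At least 3 Ccnd1 UMIs were seen in 6.45% of A cells and 20.4% of B cells. Cdkn2a, with a level like that of Ccnd1 in B cells, had 1.07 in both groups.

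Genes were ranked by the lower of their correlations with a member in A and in B cells, out of 5507 genes that reached 20 CPM in A and in B, for the 5 members seen in at least 20% of cells. For Ccnd1 the first were Krt18 (0.088 in A and 0.066 in B cells), Tm4sf1 (0.13 and 0.062) and Krt7 (0.058 and 0.061). For Cdk4 they were Hmgb2 (0.067 and 0.057), Ptma (0.076 and 0.048) and Rpl12 (0.045 and 0.043). For Cdk6 they were Sema3c (0.048 and 0.078), Pkhd1 and Hspd1, for Ccnd2 Gsta4, Slc26a2 and Lgals4, and for Cdkn2a S100a4, Fdps and Lgals2. All are weak over 7406 A and 8827 B cells.

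The rest of the pathway was read from gene lists, counting genes that reached 10 CPM in A or in B cells. Over all 8789 such genes, 10.3% were at least 2-fold higher in A, 7.2% at least 2-fold higher in B, and 62.5% had a ratio above 0. Of 5 other CDK inhibitors and pocket proteins, 1 was 2-fold higher in A, the Rb relative Rbl2 (26.5 and 8.51 CPM), and 1 was 2-fold higher in B, the p53 target Cdkn1a (2.68 and 24.4 CPM). Cdkn3 had the most UMIs (41.0 and 43.5 CPM). Cdkn2d, the other INK4 gene, had 32.1 and 21.2 CPM. Of the 10 genes of cyclin E, cyclin A and CDK2 control, 0 were 2-fold apart and 7 were above 0. Ccne1 had 51.0 and 26.8 CPM and Cks1b, which had the most UMIs, 400 and 334 CPM.

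Of 9 E2F and DP factors, 1 was 2-fold higher in B, E2f2 (8.27 and 21.1 CPM), and 6 were above 0. Tfdp1, the main E2F partner, had 97.7 and 60.8 CPM. Of 19 E2F target genes, 17 were above 0 and 0 were 2-fold apart, with a median log2 ratio of 0.36, and Rrm2, which makes deoxynucleotides, went the other way (209 and 259 CPM). The median over all genes that reached 10 CPM was 0.17. Of 8 Polycomb genes that restrain the Ink4 locus, 7 were above 0 and 0 were 2-fold apart, with Ezh2 at 213 and 186 CPM and Eed at 80.2 and 43.9 CPM.

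Of 10 ERK-responsive genes, 5 were at least 2-fold higher in B and 1 in A, with a median log2 ratio of -0.94. Fosl1, an AP-1 subunit, had 9.36 and 79.0 CPM, and Phlda1 116 and 315 CPM. The list was mixed: Etv5 (14.5 and 4.15 CPM), Spred1 (39.3 and 22.4 CPM) and Dusp4 (15.5 and 12.1 CPM) were higher in A. Of 3 neighbours of Cdkn2a and Cdkn2b with enough counts, 0 were 2-fold apart. Mtap had 171 and 214 CPM and Focad 23.6 and 15.1 CPM. Of 42 genes of the S list, 32 were above 0 and 1 was 2-fold higher in A, Cdca7 (70.4 and 21.3 CPM). Of 53 genes of the G2/M list, 42 were above 0 and 2 were 2-fold higher in A, Psrc1 (21.4 and 6.80 CPM) and Ckap2 (92.5 and 44.6 CPM). Hmgb2, which had the most UMIs of that list, had 1448 and 888 CPM.

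Cells of each group were also split by their UMIs of the ERK-responsive list. Between the highest and lowest tertile of cells by that list, Ccnd1 had 287 and 264 CPM in A cells and 498 and 515 CPM in B cells. The interval left out 0 for 1 of 10 genes in A (Ccnd1) and 3 of 10 in B (Ccnd1, Ccnd2 and Cdk6, all lower in the highest tertile). At a floor of 50 CPM this was 1 of 7 and 3 of 6, against 22.3% and 25.6% of all genes. Cdk6 had 108 and 126 CPM and Ccnd2 146 and 172 CPM in B cells. This comparison and the next were chosen after other values had been seen.

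Cdkn1a, which makes the CDK inhibitor p21, was seen in 593 of the 8827 thinned B cells. These cells had less Cdk6 (97.5 against 119 CPM), less Cdkn2b (32.5 against 41.7 CPM) and less Ccnd2 (139 against 160.2 CPM) than B cells without a Cdkn1a UMI. Cdk4 (209 and 235 CPM) and Ccnd1 (472 and 509 CPM) had the same order, and Cdkn2a did not differ beyond counting error (469 and 485 CPM). The interval left out 0 for 5 of 10 genes, all lower. At a floor of 50 CPM this was 4 of 6, without Cdkn2b, against 21.2% of all genes.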

How the data were processed

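The deposited matrix holds whole-number UMI counts per gene and cell barcode, which the authors made with Cell Ranger 8.0.1 per the file headers, on GRCm39 per the submitters' processing notes. The annotation and any filter are not given in the sources used here. The cell filter asked for 2000 UMIs, 1000 genes and no more than 15% mitochondrial UMIs, and removed 817 barcodes. CPM came from the summed counts of a group, with exact Poisson intervals, and ratios with exact conditional binomial intervals. Doublets were treated only through the marker rule: 643 cells with 2 or more UMIs of a marker set but no 3-fold excess over the other went to neither group. Scrublet (scanpy 1.11.5, expected rate 0.08) marked 3.64% of cells, and removing them was an alternative. Thinning drew 3000 UMIs per cell at random and left out 410 A and 109 B cells. Of the 33696 features, 31961 matched GENCODE M21. Annotated genes overlap Ccnd1, Ccnd2, Ccnd3, Cdk4, Cdk6 and Rb1 on the opposite strand, and Rb1 on its own strand, where counts are uncertain if strand was not used.

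The steps were tested on 3000 simulated cells, which recovered 100% of the 200 genes changed 4-fold. Of 3137 unchanged genes, 0% were at least 2-fold apart. Named genes were the members, the gene with the most UMIs and the one with the largest ratio in each list, and the closest by correlation. Rbl2, Cdkn2d, Ckap2, Etv5, Spred1, Dusp4 and the cell type markers named were picked with their values known. The members and lists were chosen with earlier results of these data known. A second sample, of 5 clones, was not analysed here, and some items are not reported here. Scipy 1.17.1 and numpy 2.4.6 were used.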

Additional observations from a re-analysis of the deposited data

How the results depend on the processing

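The A over B ratios were recomputed under 7 alternatives, and 54 of 70 values stayed within the counting interval of the main value. Centring on the median ratio moved 9: the log2 ratio became -0.48 for Cdkn2a, -0.032 for Cdkn2b, 0.74 for Cdkn2c, 1.13 for Cdkn1b, -0.99 for Ccnd1, 0.50 for Ccnd2, 0.15 for Ccnd3, 0.36 for Cdk4 and -0.53 for Cdk6, since all ratios shift by 0.11. The strict marker rule (5 UMIs and 10 times the other, 3074 A and 4788 B cells) gave -0.41 for Cdkn2a, -0.070 for Cdkn2b, -0.98 for Ccnd1 and 0.69 for Ccnd2. Ccnd1 was -0.82 under the strict cell filter and -0.94 as a mean of CPM over cells, and Cdkn2c was 0.99 in thinned cells. For the alternatives other than centring, the cause was not tested. No ratio moved under the loose filter or with Scrublet doublets removed, and only Cdkn2b, whose interval holds 0, changed sign. With a minimum of 10 CPM, 903 genes were at least 2-fold higher in A and 633 in B, against 292 and 255.

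Of 140 cell-cycle and state ratios, 124 stayed within their interval. Ccnd1 in S-high against lowest A cells turned to -0.016 with 20% of cells. Of 180 co-detection ratios 178 stayed, and Cdkn2c with Ccnd2 in B cells turned to 1.00 (1.003) at 6000 UMIs. All 40 shares of cells with a UMI, without thinning and at 6000 UMIs, were higher than those at 3000 UMIs. Shallow cells return without thinning, and only the deeper 1899 A and 3331 B cells are kept at 6000 UMIs. For Cdkn2a in A cells the share was 66.4% at 3000 UMIs, 81.7% without thinning and 88.2% at 6000 UMIs. No paired analysis was possible because there is 1 library, and for the same reason no replicate could be left out.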

Other observations

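The 4609 cells that met neither marker rule were 3966 cells with under 2 UMIs of both marker sets and 643 others. They had a median of 4325 UMIs, and Scrublet marked 9.20% of them, against 1.87% of A and 2.33% of B cells. Ccnd1 had 373 CPM, Cdkn2a 442 CPM, Cdk4 301 CPM, Ccnd2 219 CPM, Cdk6 101 CPM, Ccnd3 57.9 CPM, Cdkn1b 46.4 CPM and Cdkn2c 34.4 CPM. Cdkn2b had 45.5 CPM and Rb1 12.4 CPM. How many of these cells belong to each group was not determined.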
